A study of Mus musculus with 2 samples.

Results

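AP-1 transcription factors and other immediate-early genes were examined in single cells of the adult mouse mammary epithelium. The 10 genes were chosen by name as AP-1 or immediate-early genes: Jun, Junb, Jund, Fos, Fosb, Fosl1, Atf3, Egr1, Ier2 and Zfp36. The choice was made with earlier results of these data known. All 10 matched exactly 1 row each among the 27998 genes counted in both libraries. The cells came from untreated adult female FVB/NJ mice, an inbred laboratory strain that carries no engineered allele, and 8 mice were used for the 2 droplet (Chromium) libraries. The first library held total epithelial cells, sorted as CD24+ cells without the blood and endothelial surface proteins CD45, TER119 and CD31, and the other held basal cells, sorted in addition for high CD29. Mice were pooled within a library and there was 1 library of each kind, so no difference given here has a replicate check, and library, sort, depth and mice cannot be told apart between the libraries. The total epithelial cells were divided by counts of lineage genes. A cell with 10 or more counts of Krt5, Krt14 and Acta2 together was called basal, a cell with 10 or more counts of Prlr, Stc2 and Gpx3 was called mature luminal (ML), and any other cell with 3 or more counts of the keratins Krt8, Krt18 and Krt19 was called luminal progenitor (LP). This gave 1280 basal, 766 LP and 1133 ML cells of 3302. The sorted basal library held 4771 cells.

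Immediate-early genes are transcribed within minutes of a stimulus, without new protein synthesis, and their RNAs are short-lived. Proteins of the Jun family (Jun, Junb, Jund) pair with one another or with proteins of the Fos family (Fos, Fosb, Fosl1) through leucine zippers, and the pairs, called AP-1, bind DNA sites in the control regions of genes for growth, differentiation and response to stress. Atf3 is a related leucine zipper factor that responds to stress, Egr1 is a zinc finger factor that acts downstream of growth factor signalling, and Ier2 is a nuclear protein of less defined function. Zfp36 (tristetraprolin) binds AU-rich stretches in the 3′ untranslated region (UTR) of short-lived RNAs and hastens their decay, and is itself made as an immediate-early gene. These genes are also known to be switched on while a tissue is taken apart into single cells, which is why genes of the heat shock response, another common response to handling, were measured beside them.

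Of the members, Jun, Junb, Jund and Ier2 have a single exon, as do 4.55% of the genes with an annotated 3′ UTR in the GENCODE annotation of GRCm38 (mm10). Jun lies on chromosome 4 (95049034 to 95052222, minus strand), Fos on chromosome 12 (85473890 to 85477273, plus strand) and Zfp36 on chromosome 7 (28376784 to 28380253, minus strand). Junb, Jund and Ier2 lie on chromosome 8, Fosb on chromosome 7, Fosl1 on chromosome 19 and Atf3 on chromosome 1. The annotation places antisense genes over Jun, Jund and Zfp36, Prdx2 over part of Junb, Ccdc85b over part of Fosl1 and a small RNA gene over Atf3, all on the other strand. Whether the counting used strand is not given in the sources used here, so reads of these partners cannot be told apart from those of the members.

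The AU-rich nonamer TTATTTATT, a form of the site that Zfp36 binds, was present in the 3′ UTR of 2 of the 10 members, Fos and Zfp36 itself. It was present in 7.29% of 20235 genes with a 3′ UTR, and in 4.75% and 4.31% of the genes whose 3′ UTR was close in length to that of Fos and of Zfp36. The shorter element ATTTA occurred 4 times in the 3′ UTR of Fos (815 bases) and of Jun (1233 bases), 3 times in that of Zfp36 (774 bases) and Atf3, and 0 times in that of Ier2. The sites are shown because they set apart the RNAs that carry the full nonamer from the other members, and capitals mark the nonamer, which begins at base 655 of the Fos UTR and base 589 of the Zfp36 UTR.
Fos site: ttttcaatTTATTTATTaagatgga
Zfp36 site: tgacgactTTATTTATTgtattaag

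Promoter sequences from RefSeq (GRCm38.p6) were held for 7 of the 10 members, namely Jun, Junb, Jund, Fos, Fosb, Atf3 and Zfp36. The 250 bases before the start were searched on both strands. TGACG, which is part of the cAMP response element, was present in 4 of the 7 (Atf3, Fosb, Junb and Fos) and in 17.8% of 32851 promoters. TGACNTCA, which contains TGACG where N is G, was present only in Jun among the 7 and in 7.49% of all promoters, and TGACTCA, the classical AP-1 site, was in none of the 7 and in 4.46%. The CArG box bound by serum response factor was present in Zfp36 alone among the 7 and in 1.47% of all promoters. TATAAA was present in Fos (12.4% of all), CCAAT in Jun and Junb (33.8%), and the Egr1 site GCGTGGGCG in none of the 7 (0.536%). The stretches before the start of Fos (chr12:85473820-85473889, plus strand), Jun (chr4:95052223-95052302, minus strand) and Zfp36 (chr7:28379229-28379298, minus strand) are shown, with the motifs in capitals. They were chosen because Fos and Jun are the members whose counts differ most from cell to cell in the luminal classes. Zfp36 was chosen as the only 1 of the 7 with a CArG box in the 250 bases searched. Bases farther upstream were not searched, so a CArG box there would be missed. The Zfp36 stretch lies before the start of the RefSeq gene, which is inside the gene as GENCODE bounds it because a longer GENCODE transcript starts farther upstream, whereas the Fos and Jun stretches end at the GENCODE starts. A match is a description of the letters and no binding was measured.
Fos: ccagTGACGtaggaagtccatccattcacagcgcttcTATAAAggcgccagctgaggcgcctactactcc
Jun: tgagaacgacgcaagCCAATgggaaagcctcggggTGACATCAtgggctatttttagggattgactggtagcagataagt
Zfp36: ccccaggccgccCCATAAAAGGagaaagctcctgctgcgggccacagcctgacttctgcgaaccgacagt

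Basal, LP and ML cells had medians of 1820, 2484 and 3403 counts per cell, and sorted basal cells a median of 487 (137 to 1946). The summed level of the 8 LP markers (among them Elf5, Kit and Csn3) was 54473 counts per 1000000 counts (CPM) in the LP class. It was 2614 CPM in the basal class and 5027 CPM in the ML class. The highest single marker made up 43966, 2210 and 3999 CPM of these sums in LP, basal and ML cells. In LP cells the lowest of the 8 was at 49.6 CPM. The summed levels of the 11 basal and of the 9 ML markers were likewise highest in their own class. Both of these lists include the 3 rule genes of their class, so this order was largely set by the rules. In all, 26 cells met both the basal and the ML rule and 97 cells met none, and both sets were left out. A further 37 cells lay at 8 to 12 counts for the basal rule and 109 for the ML rule, and 13 LP cells had only 3 to 5 keratin counts. No doublet caller was run. Luminal cells held a median of 0 counts of the basal rule genes and LP cells a median of 0 of the ML rule genes. The rules held each of these counts under 10 in those cells. Basal cells held a median of 3 luminal keratin counts, the minimum of the LP rule, beside 59 in LP and 107 in ML cells. Of 5 endothelial and 8 immune markers, the summed level in the 3 classes was at most 6.02 and 47.1 CPM, of 5 pericyte and 5 Schwann cell markers at most 59.8 and 73.7 CPM, and Ptprc and Cd3e were at 0 in all 3. Of 6 fibroblast markers the ML class held 1419 CPM, of which 1281 CPM was the highest single marker. In the sorted basal library 1758 cells (36.8%) met the basal rule at its lower depth and 424 cells had 3 or more luminal keratin counts. Only 28 barcodes occurred in both libraries. Mitochondrial genes took 0.145% to 0.342% of the counts of these 4 groups.

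The 10 genes together took 3.30% of all counts in basal cells, 2.56% in LP cells, 2.47% in ML cells and 4.11% in the sorted basal library. Junb and Fos led in every group. Junb alone supplied 46.3% of the member counts in basal cells, 33.0% in LP cells and 26.6% in ML cells, whereas Jun supplied 6.47%, 14.3% and 19.0%. Fosl1 was the lowest member in every group. All levels are CPM of counts summed over the cells of a group, where a count is 1 RNA molecule read at its 3′ end, so that levels of different genes can be set side by side without dividing by length. Intervals are exact 95% Poisson intervals for levels and exact conditional intervals for ratios, and they cover counting error only.

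**Figure D1:**
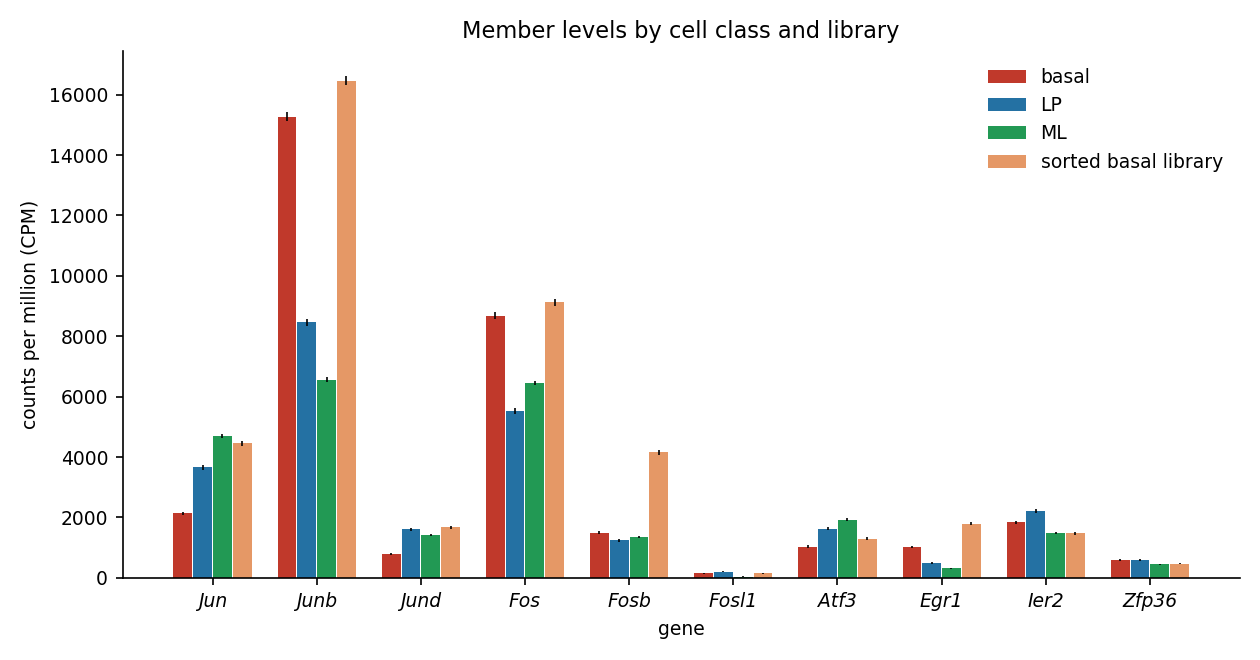
Level of each gene in CPM in the basal, LP and ML cells of the total epithelium and in the sorted basal library. Bars start at 0 and are CPM of summed counts in 1 library, and error bars are exact 95% Poisson intervals. Junb is the tallest gene in every group, at 15268 CPM in basal and 6560.1 CPM in ML cells, while Jun runs the other way, at 2134 CPM in basal and 4697 CPM in ML cells.

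Among the Jun genes the order of the lineages differed from gene to gene. Junb, which encodes a Jun protein that activates simple AP-1 sites less strongly than Jun, was at 15268 CPM (15120.1 to 15418) in basal, 8463 CPM (8340.4 to 8586) in LP cells and 6560.1 CPM (6482 to 6639) in ML cells. Jun, the founding member of the family, was at 2134 CPM (2078 to 2190.0) in basal, 3662 CPM (3581 to 3743) in LP cells and 4697 CPM (4632 to 4764) in ML cells. The intervals of the 3 classes did not overlap for either gene, and the 2 orders were opposite. Basal cells held 2.33-fold (2.29 to 2.36) as much Junb as ML cells, and ML cells held 2.20-fold (2.14 to 2.27) as much Jun as basal cells. Jund, the member that most cells make at a steady level, was at 777 CPM (744 to 812) in basal, 1607 CPM (1554 to 1661) in LP cells and 1412 CPM (1376 to 1449) in ML cells. It was 2.07-fold (1.96 to 2.18) higher in LP than in basal cells. The ratio of Junb to Jun in summed counts therefore ran from the highest value in basal to the lowest in ML cells.

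Fos, which cannot pair with itself and joins Jun proteins, was at 8679.8 CPM (8568 to 8793) in basal, 5536 CPM (5437 to 5636) in LP cells and 6449.7 CPM (6373 to 6528) in ML cells. Basal cells were highest, 1.57-fold (1.53 to 1.60) above LP and 1.35-fold (1.32 to 1.37) above ML cells. Fosb, its close relative, lay within a narrow range in the total epithelium, at 1489 CPM (1443 to 1536) in basal, 1249 CPM (1202 to 1297) in LP cells and 1346 CPM (1311 to 1382) in ML cells. Fosl1 (Fra-1), a later and longer-lived member of the Fos family, stood apart in its pattern. It was at 154 CPM (139.6 to 169.9) in basal and 202 CPM (183 to 221) in LP cells, and at 38.2 CPM (32.5 to 44.7) in ML cells. LP cells thus held 5.27-fold (4.38 to 6.36) and basal cells 4.03-fold (3.35 to 4.88) as much Fosl1 as ML cells, on 158 counts in all of the ML class.

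Egr1 was highest in basal cells, at 1028 CPM (990.1 to 1068), with 499.9 CPM (470.5 to 531) in LP cells and 315 CPM (298 to 332) in ML cells. The ratio was 2.06-fold (1.92 to 2.21) over LP and 3.27-fold (3.06 to 3.50) over ML cells. Atf3 had the order of Jun, with 1035 CPM (996 to 1074) in basal, 1624 CPM (1571 to 1679) in LP cells and 1926 CPM (1884 to 1969) in ML cells. Ier2 was highest in LP cells, at 2209.8 CPM (2148 to 2273), with 1836 CPM (1785 to 1889) in basal and 1477 CPM (1439.9 to 1514) in ML cells. Zfp36 was at 587 CPM (558 to 617) in basal and 585 CPM (553 to 618) in LP cells, values within each other's intervals, and at 453 CPM (432 to 474) in ML cells. Of the 10 members, basal cells were the highest of the 3 classes for Junb, Fos, Fosb and Egr1, LP cells for Jund, Fosl1 and Ier2, and ML cells for Jun and Atf3, with Zfp36 not separated between basal and LP cells. When every cell was given the same weight, the log2 ratio of LP over ML cells for Atf3 went from -0.25 to 0.012.

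Between basal and LP cells 1 of 10 members was 2-fold or more higher in basal (Egr1), where 19.7% of the 7310 genes with 50 or more counts in both classes together were so, and 1 was 2-fold or more higher in LP (Jund), beside 11% of those genes. Between basal and ML cells 3 members were 2-fold or more higher in basal (Junb, Egr1 and Fosl1; all genes 17.8% of 8366), and 1 was higher in ML (Jun; all genes 18.7%). Between LP and ML cells 1 was higher in LP (Fosl1; all genes 9.02% of 7749) and 0 in ML (all genes 16.2%). All 10 members had 50 or more counts in every comparison. Egr1 was no longer past 2-fold over LP cells under 4 of the alternatives, at log2 ratios of 0.77 to 0.99. Jund and Atf3 joined Jun past 2-fold in ML over basal cells when cells that hold genes of another class were left out. The 3 of 10 members higher in basal than in ML cells, 1 of them Fosl1 on 158 ML counts, stood beside 17.8% of all genes. With only 10 members this is not read as a difference from all genes. The other counts of these comparisons lay near or under the share of all genes. The median log2 ratio of the members was -0.13 for basal over LP, 0.34 for basal over ML and 0.28 for LP over ML, beside 0.21, -0.07 and -0.30 for all genes tested. Scaling by the median of ratios over genes in place of the total moved LP over ML log2 ratios by 0.22, and with it the share of genes higher in LP among those past 2-fold went from 35.8% to 50.1%. Relative to that shift, the Fos and Fosb log2 ratios of LP over ML went from -0.22 and -0.11 to 0.00242 and 0.12, so neither has a settled direction between the luminal classes.

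**Figure D2:**
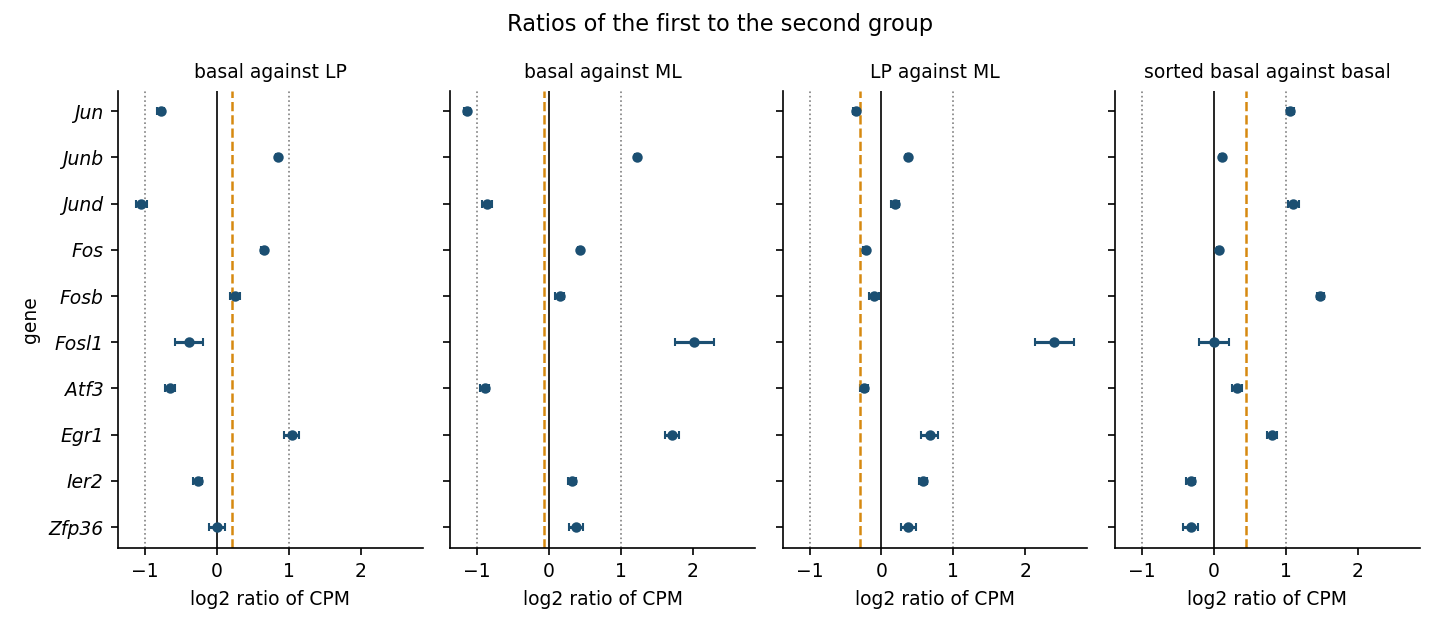
Log2 ratio of CPM of each gene between pairs of groups, the first named over the second, each from 1 library. Error bars are exact 95% intervals for counting error, dotted lines mark 2-fold, and the dashed orange line is the median over all genes tested. Jun and Junb lie on opposite sides of 0 in the 2 comparisons of basal cells, Fosl1 is the member farthest to the right in LP against ML, and Jun, Jund and Fosb pass 2-fold in the sorted basal library.

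Sorted basal cells were set against the basal cells of the total epithelium. Fosb was at 4154 CPM (4075 to 4235) in the sorted library, 2.79-fold (2.69 to 2.90) above the basal class. Jund was at 1674 CPM (1623 to 1725), 2.15-fold (2.04 to 2.27) above, and Jun at 4462 CPM (4379.6 to 4546), 2.09-fold (2.03 to 2.16) above. Egr1 was at 1793 CPM (1741 to 1847), 1.74-fold (1.66 to 1.83) above. Junb at 16462 CPM (16303 to 16622) and Fos at 9128 CPM (9010.1 to 9248) differed by less, 1.08-fold (1.06 to 1.09) and 1.05-fold (1.03 to 1.07). Atf3 was at 1294 CPM (1249.5 to 1339), and Fosl1 at 154 CPM (139 to 171) was at the level of the basal class. Ier2 at 1469 CPM (1422 to 1518) and Zfp36 at 469 CPM (442 to 497) were lower than in the basal class. In all, 3 of 10 members were 2-fold or more higher in the sorted library (all genes 28.3% of 8095) and 0 were 2-fold or more lower (all genes 16.1%), so the member counts lie near or under the background. The median log2 ratio was 0.22 for the members and 0.45 for all genes. With median-of-ratios scaling all log2 ratios of this comparison fell by 0.34 and the share of genes higher in the sorted library, among those past 2-fold, went from 63.7% to 40.8%. On that scale Fosb was still past 2-fold at 1.14, Jun and Jund were at 0.73 and 0.77, and Junb, Fos and Atf3 turned to -0.23, -0.27 and -0.02. With only the sorted cells that met the basal rule Fos was at -0.11 as well.

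The classes differ in depth, so cells were thinned to 800 counts each before cells were compared, which left out no cell of the 3 classes. Junb was then found in 98.7% (97.9 to 99.2) of basal, 95.2% (93.4 to 96.6) of LP cells and 86.8% (84.6 to 88.7) of ML cells. Fos was found in 88.4% (86.5 to 90.1) of basal, 57.8% (54.2 to 61.4) of LP cells and 82.3% (80 to 84.5) of ML cells. Jun was found in 61.5% (58.8 to 64.2), 70.6% (67.3 to 73.8) and 72.9% (70.2 to 75.5), and Egr1 in 44.5% (41.8 to 47.3), 26.1% (23.0 to 29.4) and 19.4% (17.2 to 21.8). Fosl1 was found in 9.84% (8.27 to 11.6), 13.3% (11 to 15.9) and 2.03% (1.29 to 3.03). Brackets are exact Clopper-Pearson 95% intervals. Before thinning Fos was found in 95.5% of basal, 76.8% of LP cells and 94.9% of ML cells. No class is known to lack these genes, so free RNA was gauged on lineage genes that the class rules did not use. A count of such a gene off its class can also be the cell's own RNA, so the gauge does not separate these sources. Myl9, a smooth muscle myosin light chain, was found in 80% of thinned basal cells and in 0.653% of LP cells and 0.441% of ML cells, Csn3, a milk protein, in 71.8% of LP cells and 2.81% of basal cells, and Ly6d in 69.5% of ML cells, 15.8% of LP cells and 1.41% of basal cells. Csn3 was found in 9.003% of ML cells and Areg in 7.31% of LP cells. In LP and ML cells the share with Fosl1 lay under the highest off-class value there, Ly6d at 15.8% and Csn3 at 9.003%. In basal cells it lay above the highest, Csn3 at 2.81%. None of the 3 shares is read as a share of cells that express Fosl1.

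Cells of one class differed widely in these genes, and most of all in Fos among LP cells. At 800 counts the median LP cell held 1 Fos count, the cell at the 90th percentile 20 and the highest cell 93. Among LP cells 42.2% held no Fos count, 26.5% held 1 or 2, and 9.79% held 21 or more. Counts spread evenly over the cells would leave 0.308% without one. The top 10% of LP cells by Fos held 64.6% of its counts, beside 32.8% in basal and 39.1% in ML cells. The variance over the mean, which is 1 for counts spread evenly, was 25 for Fos in LP cells, 7.85 in basal and 7.59 in ML cells. The level of Fos in the LP class was lower than in basal cells in the sum. It is thus the mean of many cells with little and a few with much. The LP rule takes every remaining luminal cell. ML markers summed to 1206 CPM in the LP class, 179 CPM in basal cells and 24075 CPM in ML cells. The LP class may thus include the luminal intermediate cells that the paper describes. Their part in this spread and in the other LP values was not tested.

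The same measure was 10.9 for Jun, 5.22 for Ier2 and 5.16 for Atf3 in LP cells, against 3.77, 1.79 and 2.12 in basal cells and 6.09, 2.87 and 2.61 in ML cells. Junb was broadly present, with 40.8% of basal cells at 11 to 20 counts and 16.0% at 21 or more. Its values were 4.52 in basal, 6.81 in LP cells and 5.40 in ML cells. Jund was close to an even spread, with 1.18, 1.40 and 1.48, and so was Fosl1, with 1.18, 1.24 and 1.14, at a low level where this measure has little room. Summed over the 10 members, the median cell held 25 counts of 800 in the basal class and 14.0 in the LP and ML classes. The highest cell held 105 counts in the basal, 212 in the LP and 115 in the ML class.

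**Figure D3:**
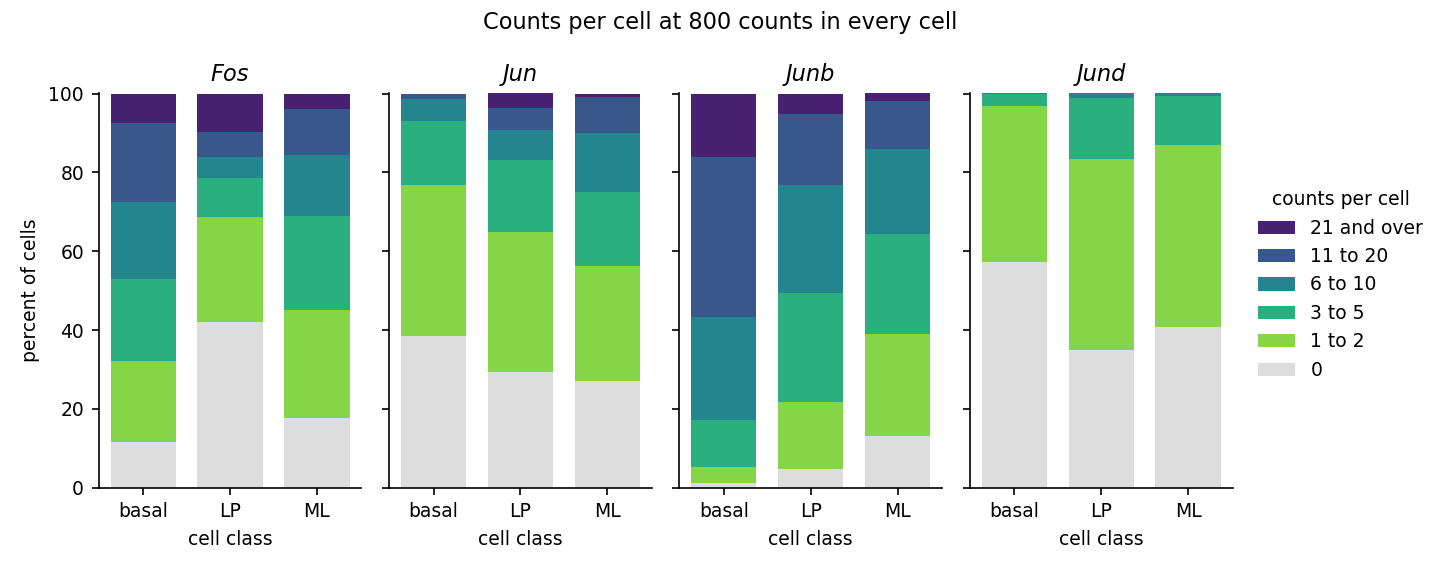
Percent of cells by the number of counts of Fos, Jun, Junb and Jund, after every cell was thinned to 800 counts, in the 3 cell classes. Each stacked bar is 1 class and adds to all its cells, and grey marks cells with no count. Fos has the largest grey part among LP cells (42.2%) together with a dark top of 9.79% at 21 or more counts, and Junb has almost no grey part in basal cells (1.33%).

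Both libraries were thinned to 400 counts to set basal cells side by side, which left out 1594 of 4771 sorted cells and no basal cell of the total epithelium. Fos was found in 78.4% (76.1 to 80.7) of basal and 75.9% (74.3 to 77.3) of sorted basal cells, and Junb in 96.5% (95.3 to 97.4) and 94.7% (93.8 to 95.4). Fosb was found in 39.0% (36.3 to 41.7) of basal and 62.3% (60.5 to 63.9) of sorted basal cells. Jun was found in 42.9% (40.2 to 45.7) and 55.4% (53.7 to 57.2), and Jund in 26.5% (24.1 to 29.0) and 42.2% (40.5 to 43.9). For Ier2 the shares ran the other way, 48.0% (45.2 to 50.7) and 34.3% (32.6 to 36.0). The intervals of the 2 libraries overlapped for Junb, Fos, Fosl1 and Atf3. The variance over the mean of Jun was 2.26 in basal and 4.52 in sorted basal cells, and that of Jund 1.05 and 1.80.

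Members were compared within cells by Pearson's r of the natural log of 1 plus the count at 800 counts. These values describe cells of 1 library that share its free RNA, and low counts hold r down. Over the 45 pairs of members the median r was 0.12 in 1280 basal cells, 0.34 in 766 LP cells and 0.26 in 1133 ML cells, and 16, 29 and 30 pairs were above 0.2. Jun and Fos had an r of 0.49 in basal, 0.66 in LP cells and 0.60 in ML cells. Junb and Fos had 0.53, the highest of basal cells, and 0.47 and 0.50 in LP cells and ML cells. Fos and Egr1 had 0.47, 0.59 and 0.31. Fosb and Atf3 had 0.20, 0.55 and 0.43. Fosl1 and, in basal cells, Jund stood outside the group. Jund had an r of -0.05 (Ier2) to 0.07 (Fosl1) with the other members in basal cells, and in ML cells 0.05 with Fos and 0.00888 with Ier2. Fosl1 had an r to Fos of -0.16 in basal, -0.11 in LP cells and -0.00193 in ML cells. In 3177 sorted basal cells at 400 counts Fosl1 and Fos were again the lowest pair, at -0.08, and Jun and Fos the highest, at 0.41. At the same 400 counts the median r was 0.067 in basal and 0.094 in sorted basal cells.

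**Figure D4:**
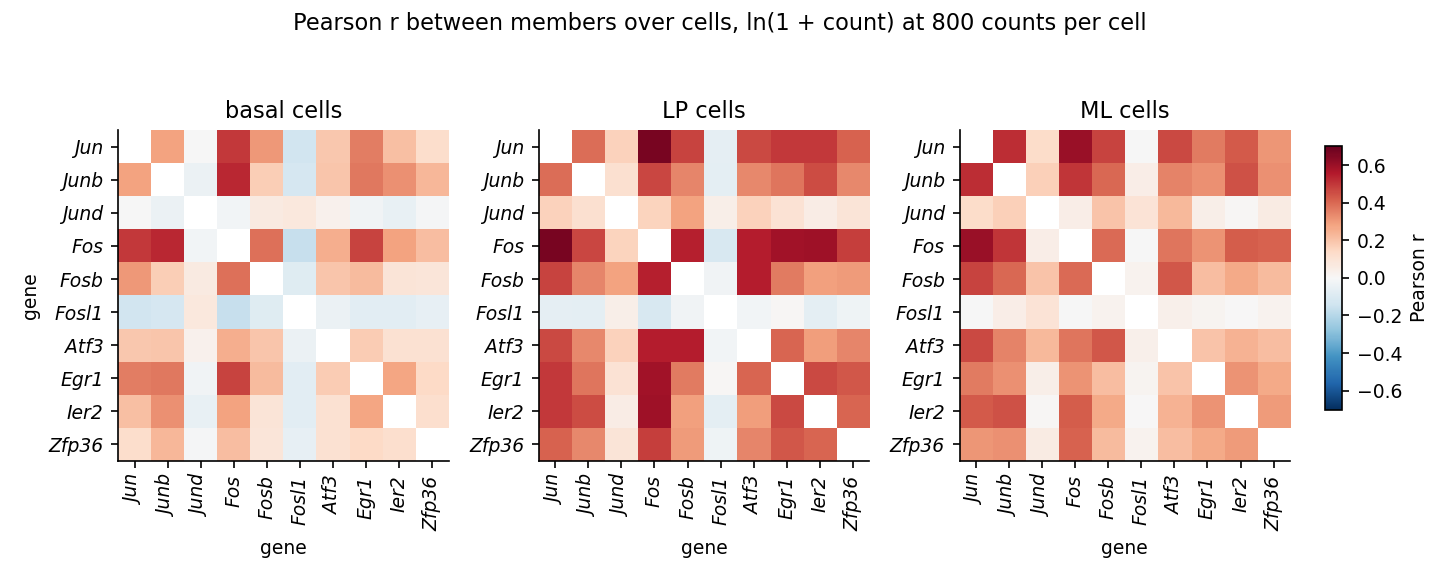
Pearson r between members over the cells of each class, from the natural log of 1 plus the count at 800 counts per cell. Red is positive and blue negative on a scale from -0.7 to 0.7, and the diagonal is left white. Fos and Jun form the reddest square in LP cells (r = 0.66), and the Fosl1 row and column are pale or blue in all 3 classes.

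Other measures were set beside the summed members over the same thinned cells. The summed level of 40 other immediate-early genes had an r of 0.52 in basal, 0.62 in LP cells and 0.63 in ML cells, and 0.44 in sorted basal cells at 400 counts. The summed level of 19 heat shock and chaperone genes had an r of 0.22, 0.45 and 0.42, and 0.22 in sorted basal cells. The r to the total count of the cell before thinning was -0.15, -0.24 and 0.10, and that to mitochondrial genes -0.02, 0.08 and -0.14. The r to the number of genes detected at the fixed depth was -0.22, -0.24 and -0.32, and -0.34 in sorted basal cells, and the counts of the members are part of that depth. The r to Malat1, a nuclear RNA, was 0.12, 0.28 and 0.09. The r to the summed markers of the own class was -0.08 in basal, 0.04 in LP cells and -0.14 in ML cells. Cells high in the members thus tended to be higher in heat shock genes, with the higher r in the luminal classes, and to show fewer genes, and the part of handling or cell quality in the member levels was not tested.

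Genes were ranked by their lowest r with the summed members over the 3 classes, among 719 genes found in at least 10% of thinned cells of every class. Among the 12 highest were Socs3, Nr4a1, Ppp1r15a, Nfkbia, Btg2, Dnajb1, Klf2, Pnrc1, Cyr61, Dusp1 and Ier3. Socs3, an inhibitor of cytokine receptor signalling, had an r of 0.39, 0.29 and 0.42 in basal, LP and ML cells. Nr4a1, an orphan nuclear receptor, had 0.27, 0.34 and 0.26. Btg2, an antiproliferative factor, had 0.23, 0.50 and 0.46. Dnajb1, a heat shock co-chaperone, had 0.18, 0.29 and 0.28. Pnrc1 (0.23, 0.16 and 0.34) was the only 1 of the 12 outside the lists drawn up for this work. Those lists were drawn up with earlier results of these data known, and their share of the 719 genes was not counted. Their overlap with the 12 is therefore not read as a result. The median over the ranked genes was -0.05. In the sorted basal library, which the ranking did not use, all 12 were among the 50 highest of 502 genes, with r from 0.10 (Nfkbia) to 0.28 (Socs3).

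**Figure D5:**
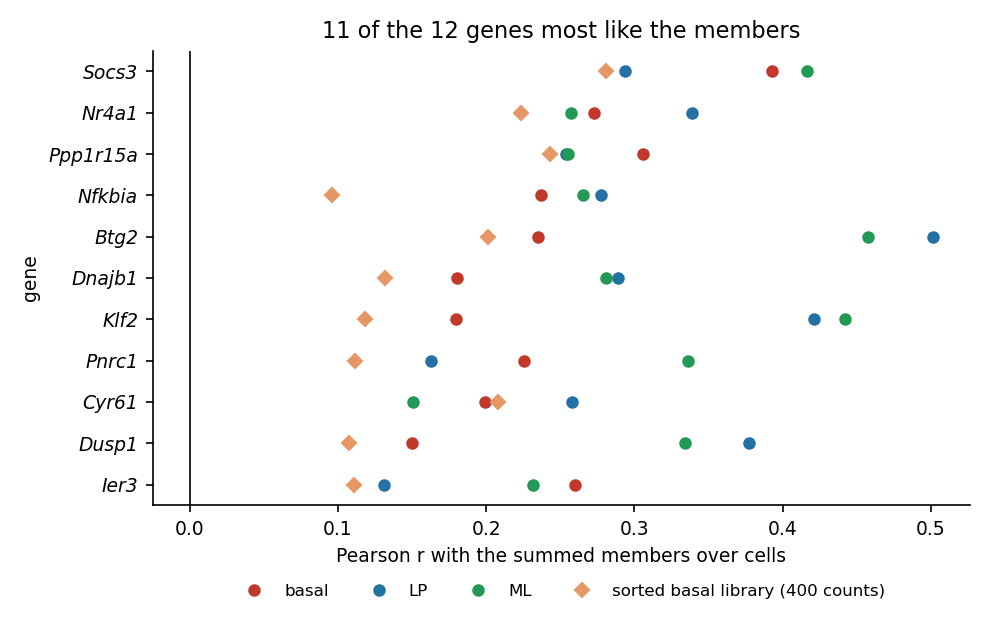
Pearson r over cells between 11 of the 12 genes most like the members and the sum of the 10 members, from the natural log of 1 plus the thinned count. Circles are the classes of the total epithelium at 800 counts and diamonds the sorted basal library at 400 counts. Genes run from the highest to the lowest value of their lowest r over the classes, from 0.29 for Socs3 to 0.13 for Ier3, and Btg2 and Klf2 lie higher in the luminal classes than in basal cells.

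The other immediate-early genes, a list of 40 genes chosen like the members with earlier results of these data known, were mostly higher in basal and LP than in ML cells. Of 38 with enough counts, 24 were 2-fold or more higher in basal and 4 in ML cells. Of 38, 11 were higher in basal and 8 in LP cells, and of 36, 21 were higher in LP cells and 3 in ML cells. The median log2 ratios were 1.42, 0.01 and 1.30, beside the medians over all genes given above. Of all genes, 17.8% were as much higher in basal than in ML, 19.7% in basal than in LP and 9.02% in LP than in ML cells. In the other direction the shares were 18.7%, 11% and 16.2%. Socs3 was at 4517 CPM in basal, 378 CPM in LP cells and 1058 CPM in ML cells, 11.9-fold (11.1 to 12.8) higher in basal than in LP cells. Klf6, a zinc finger factor, ran the other way, at 580.4, 2411 and 1761 CPM, 4.15-fold (3.92 to 4.4) higher in LP than in basal cells. Nfkbia, the inhibitor of NF-kappaB, was at 989.9, 2826 and 1323 CPM.

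The widest ratios of that list belonged to genes with few counts in luminal cells. Ctgf, a matricellular protein and serum response target, was at 533 CPM in basal, 7.41 CPM in LP cells and 2.18 CPM in ML cells, 245-fold (129 to 537) higher in basal than in ML cells on 9 ML counts. Arc, known from neurons, was at 534, 19.5 and 7.50 CPM, 71.2-fold (49.9 to 105) higher in basal than in ML cells. Egr4, a relative of Egr1, had 154 counts in basal, 1 in LP cells and 4 in ML cells, a ratio of 125-fold (22.2 to 4983) of basal over LP. Ctgf and Arc were found at 934 and 1708 CPM in the sorted basal library. There 13 of 38 were 2-fold or more higher than in the basal class (all genes 28.3%) and 1 lower, and with median-of-ratios scaling, tried for these lists after the data had been seen, 7 were higher and 4 lower.

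Among 26 other AP-1 and related leucine zipper genes, 1 was 2-fold or more higher in basal and 1 in LP cells of 20 with enough counts, and 10 were higher in basal and 1 in ML cells of 21. Between LP and ML cells 8 of 20 were higher in LP cells and 1 in ML. Of all genes, 19.7% were as much higher in basal than in LP cells and 11% in LP. Between basal and ML cells the shares were 17.8% and 18.7%, and between LP and ML cells 9.02% and 16.2%. Maff, a small Maf factor, was the highest, at 2294 CPM in basal, 1743 CPM in LP cells and 532 CPM in ML cells. Atf4, of the amino acid stress response, was at 473, 425 and 205 CPM, and Nfe2l2 (Nrf2), of the oxidative stress response, at 256, 176 and 146 CPM. Batf, an AP-1 factor without an activation domain, ran against the list, at 42.3 CPM in ML and 4.53 CPM in basal cells, 9.36-fold (5.22 to 18.5) higher in ML. Cebpb, a leucine zipper factor of the C/EBP family, was 5.56-fold (4.32 to 7.23) higher in basal than in ML cells. Between the libraries 7 of 21 were 2-fold or more higher in sorted basal cells (all genes 28.3%) and 1 lower, or 3 and 2 with median-of-ratios scaling. Cebpb was at 1638 CPM in sorted basal and 106 CPM in basal cells of the total epithelium, 15.4-fold (13.6 to 17.4) higher.

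MAP kinases and their upstream factors, which relay growth factor signals to Fos and Egr1, were at low levels. Of 21 with enough counts 5 were 2-fold or more higher in basal and 0 in LP cells, of 24, 7 were higher in basal and 0 in ML cells, and of 19, 1 was higher in LP cells and 2 in ML cells. The counts higher in basal cells stand beside 19.7% and 17.8% of all genes. Those higher in LP or in ML than in basal cells stand beside 11% and 18.7%. Between LP and ML cells the shares were 9.02% higher in LP and 16.2% higher in ML cells. Map2k3 and Map2k2 were among the highest, with Map2k3 at 252, 371 and 161 CPM in basal, LP and ML cells, and Map2k2 at 197, 187 and 255 CPM. Egfr, the receptor for epidermal growth factor, was at 30.5 CPM in basal, 14.4 CPM in LP cells and 2.42 CPM in ML cells. It was 12.6-fold (6.52 to 27.3) higher in basal than in ML cells, on 10 ML counts. Elk3 and Srf, partners at CArG boxes, were 9.93-fold (4.03 to 31.7) and 3.34-fold (2 to 5.84) higher in basal than in LP cells. These ratios rest on 5 and 19 LP counts.

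Feedback inhibitors of the same pathways were mostly higher in basal than in ML cells, 10 of 18 by 2-fold or more against ML cells with 2 the other way, and were divided against LP cells, with 6 of 17 higher in basal and 4 in LP. Between LP and ML cells 8 of 17 were higher in LP cells and 3 in ML. Errfi1, an inhibitor of EGFR, was at 2281 CPM in basal, 1818 CPM in LP cells and 364 CPM in ML cells. Spry1, an inhibitor of receptor tyrosine kinase signalling, was 29.7-fold (14.2 to 74.5) higher in basal than in LP cells, on 7 LP counts. Dusp5, a phosphatase of ERK, was highest in LP cells, 7.46-fold (6.63 to 8.4) above ML cells. Known targets of AP-1 or of Zfp36 were mostly higher in LP cells. Of 12 with enough counts 8 were 2-fold or more higher in LP than in basal cells and 2 lower, and of 11, 6 were higher in LP than in ML cells and 2 lower. Against ML cells, 2 of 11 were higher in basal and 6 in ML. The class counts of both lists stand beside these shares of all genes. Between basal and LP cells 19.7% were higher in basal and 11% in LP. Between basal and ML cells the shares were 17.8% and 18.7%, and between LP and ML cells 9.02% and 16.2%. Spp1 (osteopontin) was at 41912 CPM in LP, 3789 CPM in ML and 1733 CPM in basal cells. Cxcl2, a neutrophil chemokine with an AU-rich RNA, was 29.0-fold (24.9 to 34.1) higher in LP than in basal cells, and Cxcl1 5.57-fold (5.19 to 5.99) higher. Areg, an EGFR ligand of hormone-sensing cells, was at 2995 CPM in ML, 165 CPM in LP cells and 24.5 CPM in basal cells. Between the libraries 6 of 18 feedback inhibitors were 2-fold or more higher in sorted basal cells and 1 lower, 5 of 23 MAP kinase genes were higher and 0 lower, and 0 of 10 targets were higher and 5 lower, beside 28.3% of all genes higher and 16.1% lower. With median-of-ratios scaling these counts were 4 and 1, 1 and 0, and 0 and 5.

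Heat shock and chaperone genes were mostly higher in basal cells, as were Junb, Fos, Fosb and Egr1, whereas Jun, Jund and Atf3 were lowest there. Of 19 genes, 9 were 2-fold or more higher in basal and 0 in LP cells, and 10 were higher in basal and 0 in ML cells. Between LP and ML cells 1 was higher in LP and 1 in ML cells. Of all genes, 19.7% were as much higher in basal than in LP, 17.8% in basal than in ML and 9.02% in LP than in ML cells. In the other direction the shares were 11%, 18.7% and 16.2%. The summed level of the list was 32315 CPM in basal, 19721 CPM in LP, 16652 CPM in ML and 50949 CPM in sorted basal cells. Hspa8, a constitutive Hsp70 protein, was at 5817, 4189, 2475 and 9673 CPM in the same order, and Ubb at 2815, 2052, 2413 and 3054 CPM. Hspb8 and its partner Bag3, of chaperone-assisted autophagy, were 41.2-fold (20.7 to 96.1) and 5.12-fold (4.31 to 6.13) higher in basal than in LP cells. The Hspb8 ratio rests on 8 LP counts. Cryab was 6.89-fold (5.66 to 8.44) higher in basal than in ML cells. Hspb8, Bag3 and Cryab are also known from muscle, and basal cells are contractile. Whether this bears on their ratios was not tested, and Cryab was also 4.85-fold higher in LP than in ML cells. In the sorted library 5 of 19 were 2-fold or more higher than in the basal class (all genes 28.3%) and 2 lower, and with median-of-ratios scaling 2 were higher and 2 lower. The median log2 ratio of the list went from 0.31 to -0.02 with that scaling, so its direction between the libraries is not settled. The summed members and the summed heat shock list were therefore both highest in the basal groups. Within the total epithelium the order of the member sum leaned on Junb. The sum was 32988 CPM for the basal class, against 25637 CPM (LP) and 24673.5 CPM (ML). Junb alone made up 15268 CPM of the basal sum, against 8463 CPM (LP) and 6560.1 CPM (ML). The shared order is thus not read as a trait of the members as a list. The part of cell preparation in either sum was not tested.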

How the data were processed

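The authors counted reads with Cell Ranger 1.2.1 against mm10, per the labels (the study's methods name a later version), and deposited whole-number counts of RNA molecules per gene and cell, not normalized. The collapse of reads and the choice of cells were thus made before deposit, and the annotation and strand setting are not given in the sources used here. All 10 members and all lists were chosen with earlier results of these data known. Cells were classed by the count rules above, counts were summed per class, and CPM, exact Poisson, exact conditional and Clopper-Pearson intervals were computed in Python 3.11.15 with numpy 2.4.6 and scipy 1.17.1. Cells of 1 library are not replicates, so no p-value was computed. Thinning drew 800 or 400 counts per cell without replacement. Ratios and thinning were tested on simulated counts. Besides the members, the text names from each list the 3 genes with the highest mean CPM over classes and the 3 with the largest ratio between classes, and the 12 genes most like the members, of which a few are not reported here. Alternatives changed class thresholds, scaling, weighting of cells, genes in the total and the fold. Promoters and 3′ UTRs came from RefSeq and GENCODE on GRCm38.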

Additional observations from a re-analysis of the deposited data

How the results depend on the processing

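Of 40 log2 ratios of members, 32 kept their sign under every alternative, and Zfp36 (basal over LP) and Fosl1 (sorted basal over basal) have intervals that include no difference. The others changed sign under some. For LP over ML, Fosb turned to 0.064 with a threshold of 20 in the class rules, and without the tenth of cells with the highest totals it was at 0.00116. Under median-of-ratios scaling Fos was at 0.00242 and Fosb at 0.12, and with the mean of each cell's CPM Fos was at 0.15, Fosb at 0.10 and Atf3 at 0.012. For sorted basal over basal, that scaling put Junb at -0.23, Fos at -0.27 and Atf3 at -0.017, and sorted cells that meet the basal rule put Fos at -0.11. Egr1, just past 2-fold over LP, left the count of members higher in basal at 0 with a threshold of 5, with median-of-ratios scaling, with the mean of each cell's CPM and without the tenth of cells with the highest totals. The mean of each cell's CPM gave 2 members higher in LP than in basal cells. Leaving out cells with genes of another class gave 3 members higher in ML than in basal cells, and median-of-ratios scaling left 1 higher in sorted basal cells. At 1.5-fold, 3 members were higher in basal and 3 in LP, 3 in ML than in basal, and 2 in LP than in ML cells. All 60 shares of cells moved with the depth of thinning. The ranking without Fos, Jun and Junb shared 10 of 12 genes. Causes were not tested. With 1 library per group no replicate could be left out. No paired analysis was possible because each group has 1 library and no result comes from a test.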

Other observations

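The 97 cells under none of the rules held markers of fibroblasts (8489 CPM summed), pericytes (2563 CPM), Schwann cells (831 CPM) and endothelium (719 CPM), and the 10 members took 3.23% of their counts. In the 26 cells that met both the basal and the ML rule, with a median of 4609 counts, the members took 3.31%.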
